A study of Mus musculus with 6 samples.

Results

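The organic ion and drug transporters of the kidney were examined in whole left kidneys of wild-type (WT) and Selenbp1-KO mice. The members were the array probes whose gene name begins with Slc22a, Slco, Slc47a or Abcc and a number, together with Abcb1a, Abcb1b and Abcg2. Slc22a5, the carnitine transporter, and Slco2a1, the prostaglandin transporter, were left out by that rule, which uses names and no measured value. It gave 54 genes read by 100 probes, of 37325 genes and 56605 probes on the array. All 100 probes were tested, and 29 of the genes are read by more than 1 probe. The RNA came from 3 WT mice (replicates 2, 3 and 4) and 3 Selenbp1-KO mice (replicates 1, 2 and 3). All were males of strain C57BL/6J, 8 weeks old and fasted for 20 h, and 1 array was hybridized per mouse. The methods state that C57BL/6J mice were bought, and do not call them littermates of the Selenbp1-KO mice. How the knockout was made is not given in the sources used here, and no fed mice were measured on the arrays, so fasting is common to both groups. The study compared the genotypes to learn what changes in the kidney when Selenbp1, a selenium-binding protein, is lost.

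The proximal tubule of the kidney clears drugs, toxins and the body's own organic acids and bases from the blood. Transporters of the Slc22 family on the blood side (Slc22a6 and Slc22a8 for anions, Slc22a2 for cations) take these compounds into the cell. Efflux proteins on the urine side, among them Slc47a1, Abcc2, Abcc4, Abcb1 and Abcg2, pass them into the urine. Others work in the direction of reabsorption, such as Slc22a12, which recovers urate. The Slco genes encode the organic anion transporting polypeptides, which carry bile acids, steroid conjugates and thyroid hormones. Abcc8 and Abcc9 match the naming rule but are sulfonylurea receptors, the regulatory subunits of potassium channels, and transport no drug.

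The arrays read each gene through probes of 60 bases, and what a value stands for is the RNA that pairs with such a probe. The first 30 bases of the probes on which the results below turn are shown here, 5′ to 3′ and in lower case with nothing marked, as the array files give them.
Abcb1b: tccaggctggagcaaagcgctcatgagctg
Abcc5: gtagaagttttttgtactgtaaagagacct
Slc22a12: tctacccggctgtagttgcctggagaagga
Slc22a16: cagagcccctcctgaaaagaacactgagat
Slc22a7: cctgtgtttatccagtctccaaaaacagga
Slco1a1, brighter probe: cttcactttctttgaatcatgagagatata
Slco1a1, other probe: gatattctcaaagactactttcttatactc
On the mm9 build of the files the Abcb1b probe lies at chr5:8865925-8865984 on the plus strand, the Abcc5 probe at chr16:20331568-20331627 on the minus strand and the Slc22a12 probe at chr19:6536084-6536143 on the minus strand. The Slc22a16 probe lies at chr10:40323674-40323733 on the plus strand and the Slc22a7 probe at chr17:46569272-46569331 on the minus strand. The brighter Slco1a1 probe lies at chr6:141857328-141857387 and the other at chr6:141856493-141856552, both on the minus strand. The Slco1a1 probes therefore read separate stretches of 1 transcript.

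Some members belong to rows of near-identical genes, and their probes can share sequence. Among all pairs of probes of different member genes, 2 pairs shared a run of 15 bases or more. For Slc22a28 and Slc22a30, both rodent organic anion transporters, 50 of 53 aligned bases were identical. The last 30 aligned bases are shown with the position that differs in capitals.
Slc22a28: caattttcCcagatgattactcagaattct
Slc22a30: caattttcTcagatgattactcagaattct
How far these probes each read the other gene's RNA is not known. The Slc22a30 gene is represented below by another of its probes, which is in neither pair. Slc22a28 is represented by the probe shown here. Slc22a29 is represented by its probe in the other pair, which shares sequence with a Slc22a27 probe that does not represent Slc22a27.

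Values are given mouse by mouse, WT 2, 3 and 4 first and Selenbp1-KO 1, 2 and 3 after, as log2 signals relative to the 75th percentile of the array, and differences are Selenbp1-KO minus WT on that log2 scale with the standard error (SE) from limma. A gene is represented by its probe with the highest mean signal. A gene was called where limma gave an unadjusted p below 0.05, and none of the member genes passed after Benjamini-Hochberg adjustment over all probes (limma, adjusted p = 0.279 for each called member). Signals of different probes depend on how well each binds, so levels are compared between mice and not between genes.

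Selenbp1, the targeted gene, was at 7.02 to 7.07 in WT and at 3.98 to 4.13 in Selenbp1-KO kidneys, so no label went against it. Between 51.8% and 55.5% of the spots of an array were well above background, and no spot was saturated. All arrays lay on 1 slide. By the first number of the place that the scanner software gives each array, here called the slide position, WT replicates 2 and 3 were in position 1, and WT replicate 4 and all Selenbp1-KO arrays in position 2. With the position as a block the comparison is therefore that of 3 Selenbp1-KO arrays with WT replicate 4. Of 12 proximal tubule markers 0 were called (limma, unadjusted p under 0.05), and the log2 of the summed signal of 11 of them was 9.92 to 10.19 in WT and 10.06 to 10.10 in Selenbp1-KO, without Slc27a2, which has no value on the array of WT replicate 3. Some markers of other cells were called higher in Selenbp1-KO, where 6.87% of all genes were called higher. They were 5 of 9 macrophage markers (log2 sum 4.03 to 4.32 in WT, 4.48 to 4.60 in Selenbp1-KO), 4 of 6 red blood cell markers (8.21 to 8.61 against 8.74 to 9.35) and 4 of 7 fibroblast markers (4.29 to 4.70 against 5.0 to 5.38). Of 8 endothelial markers 0 were called (5.34 to 5.54 against 5.44 to 5.67), and of 7 fat tissue markers 0 were called (4.73 to 6.19 against 5.29 to 7.44). All 7 fat tissue markers had a positive difference, with a median of 0.78. Called higher were 1 of 12 markers of the loop and distal nephron and 1 of 6 of the glomerulus, and 0 of 7 of the adrenal gland were called. The part of these cells in the transporter values was not tested, and in whole kidney fewer cells of a type and less RNA per cell cannot be told apart.

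As a group, the transporter genes were called at about the rate of all genes. Of the 54 genes, 5 were called (9.26%), while 8.0% of all 37028 genes tested were called. Slc22a12, Slc22a16 and Slco6c1 were higher in Selenbp1-KO, where 6.87% of all genes were called higher, and Abcb1b and Abcc5 were lower, where 1.13% of all genes were called lower. The median difference was 0.05 over the member genes and 0.13 over all genes. With quantile normalization 2 member genes were called higher and 4 lower. The count was 1 without WT replicate 2, 2 without WT replicate 3 and 14 without WT replicate 4. Of the 54, 43 were well above background on every array, and 4 of those were called, 2 in each direction, against 5.48% of the 18364 genes of that kind. The median difference of these 43 was −0.01, with 21 values above 0 and 22 below. The values of the genotypes were fully apart in 9 of the 43, 4 with Selenbp1-KO above and 5 with it below. Among all genes of that kind 19.2% did not overlap, 12.7% with Selenbp1-KO above and 6.51% with it below.

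**Figure D1:**
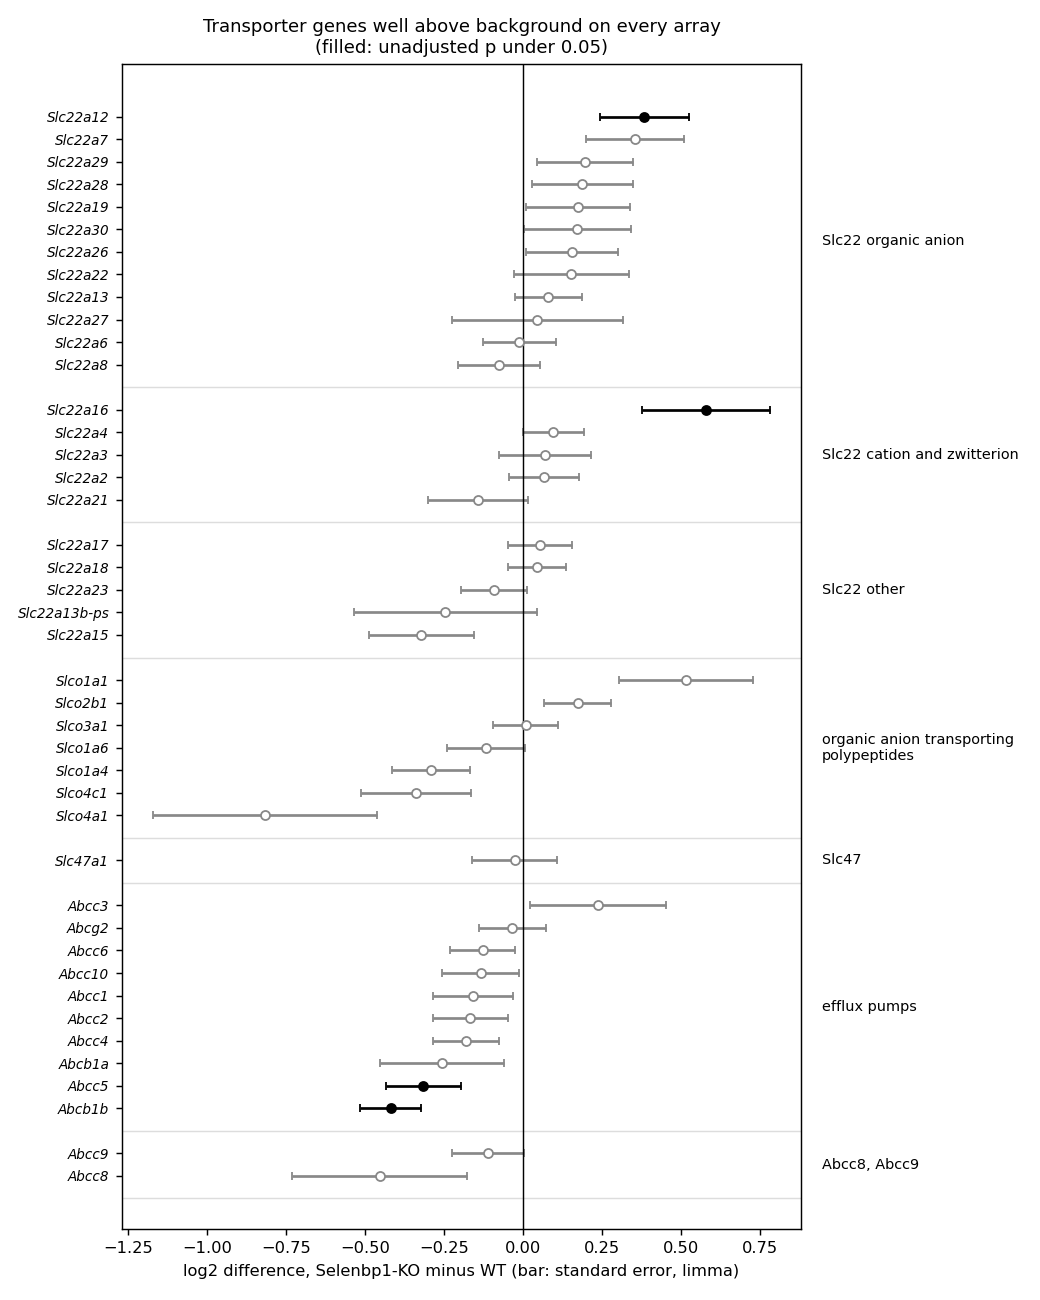
Log2 difference, Selenbp1-KO minus WT, of 42 of the 43 transporter genes well above background on every array, grouped by role. Points are limma estimates from 3 arrays a genotype, bars are standard errors, and filled points have an unadjusted p under 0.05. Slc22a12 and Slc22a16 lie to the right of 0 and Abcc5 and Abcb1b to the left, and 9 of 10 efflux pumps lie below 0.

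Most efflux pumps had a lower mean signal in Selenbp1-KO. Of 11 genes, 10 were well above background on every array, and 9 of these 10 had a lower mean in Selenbp1-KO, with a median difference of −0.16. Of all 18364 genes well above background on every array, 8246 had a negative difference. Called were 2, Abcb1b and Abcc5, both lower, where 1.13% of all genes were called lower. For 4 of the 10 every Selenbp1-KO array was below every WT array, where 6.51% of all genes well above background were so. The median was below 0 in all 18 alternative settings, from −0.19 to −0.11, the slide position as a block included (−0.19). The median deviation from the WT mean was −0.09, −0.19 and −0.15 for the Selenbp1-KO mice, against −0.01, −0.01 and 0.02 for the WT mice. By this median every Selenbp1-KO kidney was below every WT kidney. The macrophage, red blood cell and fibroblast markers given above differed between the same groups, and their part in these values was not tested.

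Abcb1b and Abcb1a encode P-glycoprotein, which pumps a wide range of lipophilic drugs out of cells, and rodents have both genes where humans have a single one. Abcb1b was at 0.06, 0.08 and 0.09 in WT and at −0.34, −0.42 and −0.28 in Selenbp1-KO. The WT kidneys were nearly equal, and every Selenbp1-KO kidney was lower. Abcb1b fell by 0.42 (SE 0.10), a 1.34-fold higher signal in WT (limma, unadjusted p = 0.00458, adjusted p = 0.279). Without any single array the difference stayed between −0.45 and −0.38, and with the slide position as a block it was −0.43 (limma, unadjusted p = 0.0178). The second Abcb1b probe was not well above background on a single array, and the call was lost in the mean of both probes (−0.27, limma, unadjusted p = 0.278). Abcb1a was at −1.78, −1.69 and −1.35 in WT and at −1.57, −2.17 and −1.84 in Selenbp1-KO. Its groups overlapped, with a difference of −0.26 (SE 0.20, 95% interval −0.74 to 0.23).

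Abcc5 exports cyclic nucleotides and organic anions. Its brightest probe was at 0.65, 0.53 and 0.42 in WT and at 0.10, 0.34 and 0.21 in Selenbp1-KO. The highest Selenbp1-KO kidney lay just under the lowest WT kidney. Abcc5 fell by 0.32 (SE 0.12), a signal 1.24-fold higher in WT (limma, unadjusted p = 0.0373, adjusted p = 0.279). The call was lost without Selenbp1-KO replicate 1 (−0.26), Selenbp1-KO replicate 3 (−0.31), WT replicate 2 (−0.26) or WT replicate 3 (−0.32), with limma p of 0.0817 to 0.131. It was also lost with the slide position as a block (−0.20, unadjusted p = 0.234) and in the mean of all probes (−0.21, limma, unadjusted p = 0.168). All 6 probes of the gene cleared the background on each array, and 5 had a negative difference, from −0.32 to −0.23, and 1 had 0.14.

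Abcc4, Abcc2 and Abcg2, pumps of the urine side, were closer between genotypes than Abcb1b and Abcc5. Abcc4, which exports urate and cyclic nucleotides, was at 2.31, 2.36 and 2.43 in WT and at 2.09, 2.18 and 2.29 in Selenbp1-KO. These values did not overlap, and the difference was −0.18 (SE 0.11, 95% interval −0.44 to 0.08). Abcc2, the apical pump for drug conjugates, was at 3.01, 3.18 and 3.14 in WT and at 3.01, 2.78 and 3.04 in Selenbp1-KO. The difference was −0.17 (SE 0.12), with groups that overlapped. Abcg2, the breast cancer resistance protein and a urate exporter, was at 6.22, 6.16 and 6.31 in WT and at 6.19, 6.11 and 6.30 in Selenbp1-KO. Abcg2 had the smallest difference of the pumps, −0.03 (SE 0.11, 95% interval −0.29 to 0.22).

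On the basolateral side, Abcc1 and Abcc3 export conjugates to the blood. Abcc1 was at −0.96, −0.99 and −1.14 in WT and at −0.99, −1.26 and −1.31 in Selenbp1-KO, a difference of −0.16 (SE 0.13). Abcc3 was at −0.55, −0.47 and −0.63 in WT and at −0.39, 0.12 and −0.68 in Selenbp1-KO. It was the pump with a positive difference among the 10, 0.24 (SE 0.21), and Selenbp1-KO replicate 2 was the highest of the 6 kidneys. Abcc6 and Abcc10 differed by −0.13 each, and Abcc6 was the fourth pump whose arrays did not overlap. Abcc12 stayed near background on all arrays. The sulfonylurea receptors Abcc8 and Abcc9 differed by −0.45 (SE 0.28) and −0.11 (SE 0.11), and neither was called.

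**Figure D2:**
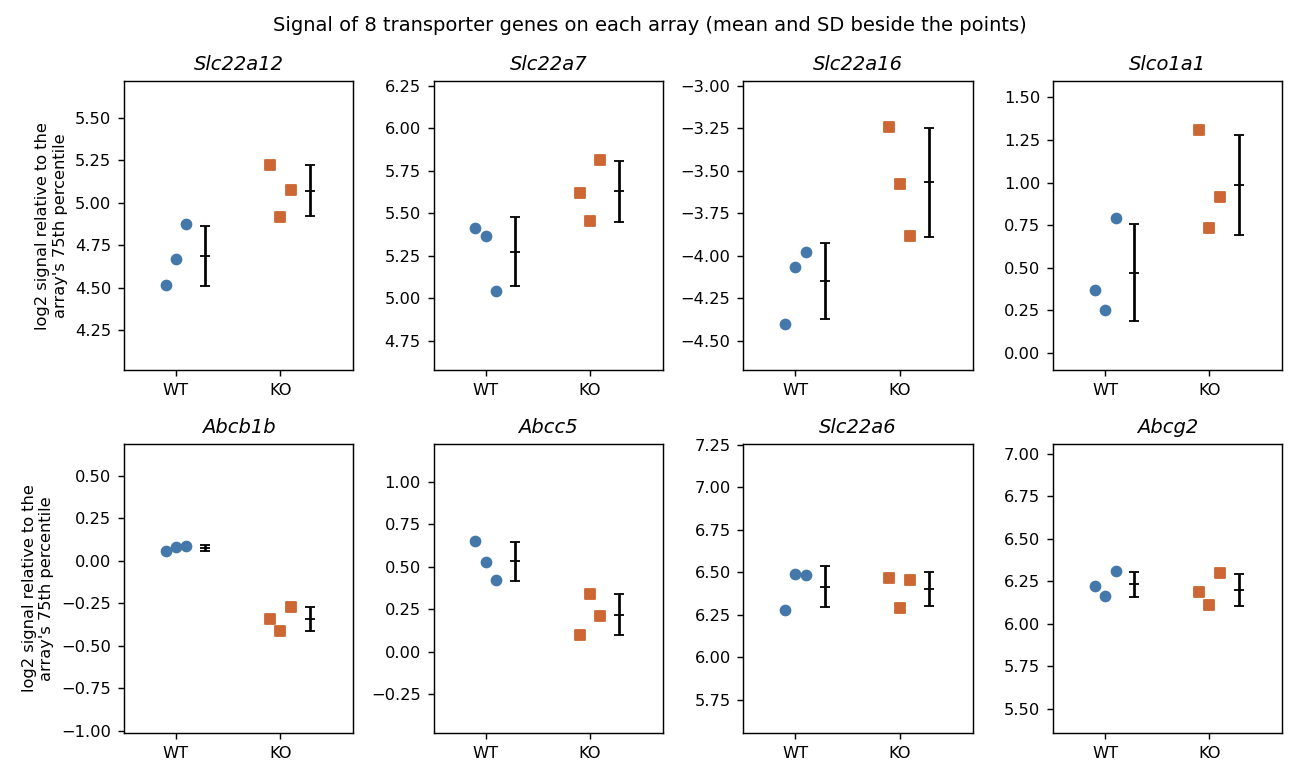
Log2 signal relative to the 75th percentile of the array for 8 transporter genes, 1 panel a gene, with circles for WT replicates 2, 3 and 4 and squares for Selenbp1-KO replicates 1, 2 and 3 from left to right. Black marks are the mean and SD of 3 arrays, and all panels span the same range of log2 units. Abcb1b, Abcc5, Slc22a12, Slc22a16 and Slc22a7 do not overlap between genotypes, and Slco1a1, Slc22a6 and Abcg2 overlap.

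The organic anion transporters of the Slc22 family leaned to higher signals in Selenbp1-KO, but the shift depended on which WT arrays were compared. Of 12 genes well above background on every array, 10 had a positive difference, with a median of 0.16. Among the 12, 1 was called, Slc22a12, where 5.48% of all genes of that kind were called. The median deviation from the WT mean was 0.18, 0.07 and 0.21 for the Selenbp1-KO mice, against −0.07, −0.10 and 0.18 for the WT mice. WT replicate 4 thus resembled the Selenbp1-KO kidneys, with which it shares the slide position. The arrays of this group overlap in that median. With the position as a block, 4 of 12 were positive and the median turned to −0.05.

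**Figure D3:**
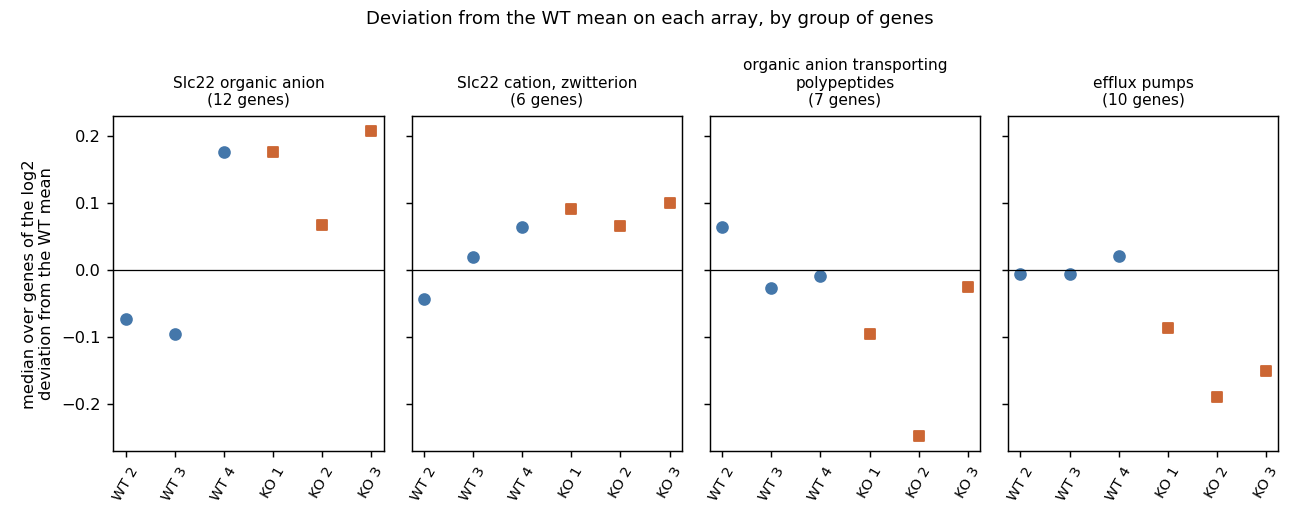
Median, over the genes of a group that are well above background on every array, of the deviation from the WT mean (log2) on each of the 6 arrays. In the efflux pumps the 3 Selenbp1-KO arrays (squares) lie from −0.19 to −0.09, below the WT arrays (circles). In the Slc22 organic anion transporters WT replicate 4, at 0.18, lies among the Selenbp1-KO arrays.

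Slc22a12 encodes the urate transporter of the brush border, which exchanges urate in the urine for organic anions in the cell. Slc22a12 was at 4.52, 4.67 and 4.87 in WT and at 5.22, 4.92 and 5.08 in Selenbp1-KO. All Selenbp1-KO kidneys were above all WT kidneys, though replicate 4 of WT and replicate 2 of Selenbp1-KO were close. Slc22a12 rose by 0.38 (SE 0.14), which is 1.31-fold (limma, unadjusted p = 0.0347, adjusted p = 0.279). The call was lost without Selenbp1-KO replicate 1 (0.31), Selenbp1-KO replicate 3 (0.38), WT replicate 2 (0.30) or WT replicate 3 (0.38), with limma p of 0.0819 to 0.117. With the slide position as a block the difference was 0.20 (unadjusted p = 0.293), and it was not called with arrays scaled by their median (0.37, limma, unadjusted p = 0.0527).

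Slc22a7, which carries organic anions and cyclic nucleotides, was at 5.41, 5.37 and 5.04 in WT and at 5.62, 5.45 and 5.81 in Selenbp1-KO. Its groups did not overlap, and its difference of 0.35 (SE 0.16, limma, unadjusted p = 0.0619) missed the threshold. Here WT replicate 4 was the lowest kidney, and with the slide position as a block the difference was 0.59 and passed (unadjusted p = 0.0204).

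The main basolateral anion uptake carriers were nearly equal in both genotypes. Slc22a6, the transporter that imports para-aminohippurate, diuretics and antivirals, was at 6.28, 6.49 and 6.48 in WT and at 6.47, 6.29 and 6.45 in Selenbp1-KO. Slc22a8, its neighbour on the chromosome with an overlapping range of substrates, was at 4.06, 4.41 and 4.17 in WT and at 4.17, 4.03 and 4.21 in Selenbp1-KO. The differences were −0.01 for Slc22a6 (SE 0.12, 95% interval −0.29 to 0.27) and −0.08 for Slc22a8 (SE 0.13, 95% interval −0.39 to 0.24). In both genes the spread between mice was larger than the difference.

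The rest of the anion group had small positive differences. Slc22a13, a carrier of urate and nicotinate, was at 5.58, 5.37 and 5.46 in WT and at 5.54, 5.50 and 5.62 in Selenbp1-KO, a difference of 0.08 (SE 0.11). Slc22a22, a prostaglandin transporter of the tubule, was at 0.78, 0.69 and 1.17 in WT and at 1.28, 0.88 and 0.94 in Selenbp1-KO, a difference of 0.15 (SE 0.18). Slc22a30 was at 3.46, 3.14 and 3.73 in WT and at 3.67, 3.65 and 3.52 in Selenbp1-KO, a difference of 0.17 (SE 0.17). In Slc22a22 and Slc22a30 WT replicate 4 was above 2 or more of the Selenbp1-KO kidneys. Slc22a20 stayed near background on all arrays.

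Part of this group forms a row of genes on chromosome 19. Within chr19:7757409-8700927 of mm9 lie 8 members, from Slc22a19 to Slc22a6, all well above background on every array. Of the 8, 6 had a positive difference and 0 were called, with a median of 0.16. The 6 are Slc22a19, Slc22a26, Slc22a27, Slc22a28, Slc22a29 and Slc22a30, a rodent expansion of the family, with differences of 0.05 to 0.20, while Slc22a8 and Slc22a6 at the end of the row were below 0. With the slide position as a block, Slc22a26 (−0.01), Slc22a27 (−0.48), Slc22a28 (−0.10), Slc22a29 (−0.10) and Slc22a30 (−0.11) turned below 0. Slc22a19 stayed above 0, at 0.34.

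The organic cation and zwitterion transporters held 1 called gene of 6, where 5.48% of genes well above background on every array were called. Slc22a16, a carnitine transporter known from the testis, was at −4.40, −4.06 and −3.98 in WT and at −3.24, −3.58 and −3.88 in Selenbp1-KO. The groups did not overlap, but replicate 4 of WT and replicate 3 of Selenbp1-KO nearly met. Slc22a16 rose by 0.58 (SE 0.20), which is 1.49-fold (limma, unadjusted p = 0.0289, adjusted p = 0.279). The call was lost without Selenbp1-KO replicate 1 (0.42), Selenbp1-KO replicate 2 (0.58), WT replicate 2 (0.45) or WT replicate 3 (0.62), with limma p of 0.0502 to 0.0901, and with the slide position as a block (0.41, unadjusted p = 0.215). It was lost as well with the methods' t-test (unadjusted p = 0.0614), and with normexp background correction the difference was 0.36 and called. Its probe was low in signal but well above background on every array.

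Slc22a2, which starts renal secretion of metformin and similar drugs, was not called, and neither were Slc22a4 and Slc22a3. Slc22a2, the main basolateral cation transporter of the kidney, was at 4.86, 4.85 and 5.09 in WT and at 4.99, 4.99 and 5.03 in Selenbp1-KO, a difference of 0.07 (SE 0.11, 95% interval −0.20 to 0.34). Slc22a4, the ergothioneine transporter, was at 1.65, 1.56 and 1.53 in WT and at 1.71, 1.63 and 1.69 in Selenbp1-KO, a difference of 0.10 (SE 0.10). Slc22a3, a low-affinity carrier of cations and monoamines, had groups that overlapped and a difference of 0.07 (SE 0.15).

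Slc47a1 encodes the proton exchanger that passes cations into the urine. It was at 5.95, 5.98 and 6.30 in WT and at 6.13, 5.96 and 6.06 in Selenbp1-KO. The difference was −0.03 (SE 0.13, 95% interval −0.35 to 0.30), and WT replicate 4 was the highest kidney. The other gene of that family, Slc47a2, stayed near background on all arrays. Of the other Slc22 genes, 6 in all, 0 were called (limma, unadjusted p under 0.05), and 5 were well above background on every array, with differences from −0.32 to 0.05. Among them Slc22a18, an imprinted gene of uncertain substrate, was at 6.66, 6.60 and 6.60 in WT and at 6.70, 6.62 and 6.68 in Selenbp1-KO, a difference of 0.04 (SE 0.09).

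Among the organic anion transporting polypeptides, 7 of 14 genes were well above background on every array, with 3 positive and 4 negative differences and 0 of the 7 called. Slco1a1, the uptake carrier for steroid conjugates and bile acids in the mouse tubule, is read by a pair of probes of almost equal mean signal. The brighter was at 0.37, 0.25 and 0.79 in WT and at 1.31, 0.73 and 0.91 in Selenbp1-KO. Its groups overlapped through WT replicate 4 and Selenbp1-KO replicate 2, and its difference of 0.52 (SE 0.21, limma, unadjusted p = 0.0510) missed the threshold. The other Slco1a1 probe was at 0.40, 0.20 and 0.57 in WT and at 1.12, 0.87 and 1.13 in Selenbp1-KO, with no overlap. On that probe Slco1a1 rose by 0.65 (SE 0.14), which is 1.57-fold (limma, unadjusted p = 0.00378, adjusted p = 0.279), and the call was made in all 17 alternative settings, at 0.47 to 0.74. The brighter probe was called in 6 of 17, and its difference was 0.19 (unadjusted p = 0.473) with the slide position as a block. The mean of both probes differed by 0.58 and was called (limma, unadjusted p = 0.0128).

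The other carriers of this family that the tubule is known for did not pass the threshold. Slco4c1, a basolateral carrier of digoxin and thyroid hormones, was at 0.16, −0.13 and −0.33 in WT and at −0.23, −0.64 and −0.44 in Selenbp1-KO, a difference of −0.34 (SE 0.17, limma, unadjusted p = 0.1). Its second probe, also well above background everywhere, differed by −0.00 (SE 0.13). Slco1a6 was at 2.89, 2.96 and 2.95 in WT and at 2.84, 2.63 and 2.98 in Selenbp1-KO, a difference of −0.12 (SE 0.12). Its second probe had the opposite sign, 0.19 (SE 0.18). Slco3a1, a prostaglandin and thyroxine carrier, was at 3.89, 3.88 and 3.94 in WT and at 4.03, 3.83 and 3.88 in Selenbp1-KO, a difference of 0.01 (SE 0.10). Among the genes of this family well above background on every array, and chosen after the values were seen, Slco4a1 had the widest gap, −0.82 (SE 0.36, limma, unadjusted p = 0.0605), with WT replicate 2 at 3.16 and the other kidneys from 1.37 to 2.21. The other Slco4a1 probes, also well above background on every array, differed by −0.64 (SE 0.60) and −0.02 (SE 0.13). Slco1a4 differed by −0.29 (SE 0.12, limma, unadjusted p = 0.0557) with groups that did not overlap, and by −0.05 with normexp background correction (limma, unadjusted p = 0.688). At chr6:141518164-142536979 of mm9 lie 7 members in a row, among them Slco1a1, Slco1a4, Slco1a6 and the sulfonylurea receptor Abcc9. These 4 were well above background on every array, and 1 of them, Slco1a1, had a positive difference.

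Probes near background form a group of their own in these values. Of the 100 probes, 29 were well above background on no array, with a median difference of 0.37, and the 24333 such probes of the whole array had a median of 0.38. Of the 29, 4 were called, all higher (9.91% of all such probes were called higher). They belong to Slc22a15, Slc22a19, Slco1b2 and Slco6c1. Slco6c1 counts among the 5 called genes above, and its signal was not well above background in either genotype, so it has no fold. The median of all such probes was −7.41, −7.48 and −6.98 on the WT arrays, and it stood at −6.95, −6.76 and −7.05 on the Selenbp1-KO arrays. On this scale the dim probes were thus higher in WT replicate 4 and the Selenbp1-KO arrays. The scale is relative to the 75th percentile of each array, which was lower on those same arrays. That percentile was 711, 751 and 519 on the WT arrays and 566, 477 and 584 on the Selenbp1-KO arrays. The level of the dim probes before scaling was not compared. The 65 probes that cleared the background everywhere had a median difference of −0.00, and 5 of them were called, against 5.23% of all probes of that kind. Over all 100 probes 10 were called, against 7.98% on the whole array. A further 6 probes were well above background on some arrays, and 1 of them, a second Slc22a15 probe, was called lower.

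**Figure D4:**
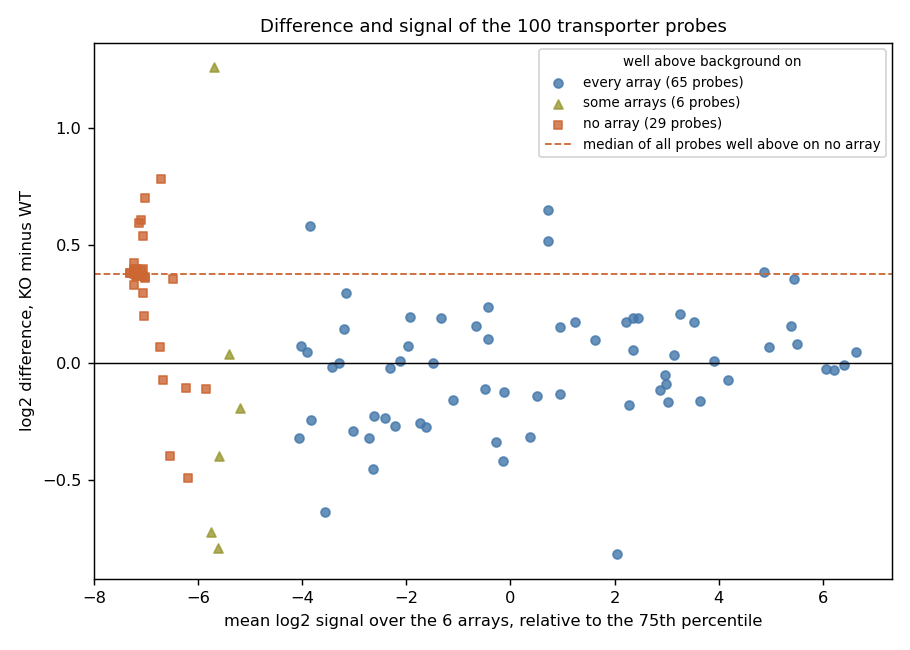
Log2 difference, Selenbp1-KO minus WT, against the mean log2 signal over the 6 arrays for the 100 transporter probes, with circles for the 65 well above background on all arrays, triangles for the 6 so on some arrays and squares for the 29 so on none. The dashed line is the median, 0.38, of all probes on the array that are well above background nowhere. Most squares lie on that line, and the circles lie around 0.

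Several probes read the same gene in part of the set, which gives a check within the arrays. More than 1 probe well above background on every array was available for 14 genes. In 10 of them all such probes lay on 1 side of 0, and in 4, Abcc1, Abcc5, Slco1a6 and Slco3a1, they lay on both sides. The 12 genes with the highest signals, which include Slc22a6, Slc22a2, Slc47a1 and Abcg2, had standard errors of 0.09 to 0.17. Of these 12, 8 had a difference of less than 0.1 in size, and 1, Slc22a12, was called.

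**Figure D5:**
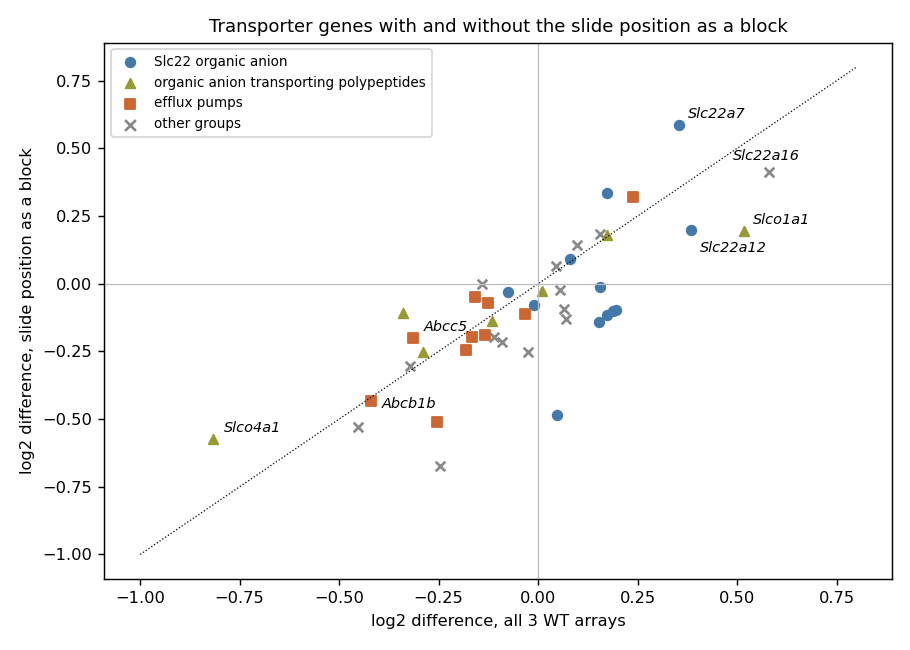
Log2 difference with the slide position as a block (vertical) against the difference over all arrays (horizontal) for the 43 transporter genes well above background on every array. The block leaves the comparison of 3 Selenbp1-KO arrays with WT replicate 4, and the dotted line marks equal values. Abcb1b lies on the line at −0.42 and −0.43, and Slc22a12 and Slco1a1 lie below it.

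Of the genes that work with these transporters, 6.67% of the listed partners and 10% of the listed regulators were called, against 8.0% of all genes. Of 15 partners of tubular organic ion transport, among them the dicarboxylate carriers that feed the anion exchangers, the apical urate carriers and the scaffold Pdzk1, 1 was called. That gene, Slc17a4, an apical anion carrier, was at −3.78, −4.27 and −3.83 in WT and at −4.19, −5.43 and −4.79 in Selenbp1-KO, and fell by 0.84 (SE 0.33, limma, unadjusted p = 0.0426). Its groups overlapped, and it was not well above background on every Selenbp1-KO array. The call was made in 8 of 17 alternative settings, with a difference from −1.15 to 0.02, the last with normexp background correction. The median of the 15 was 0.02. The groups did not overlap in 1 of the 15, Slc51a, a subunit of the basolateral bile acid and steroid carrier, which differed by −0.27 (SE 0.12, limma, unadjusted p = 0.0746). Slc13a3, the basolateral dicarboxylate carrier, differed by 0.03 (SE 0.13) and Pdzk1 by 0.08 (SE 0.11). Of 10 regulators of transporter genes 1 was called, Nr1i3, the constitutive androstane receptor, which rose by 0.58 (SE 0.22, limma, unadjusted p = 0.0400) with groups that overlapped. It was called in 11 of 17 alternative settings, with a difference of 0.20 to 0.90, the lowest with the slide position as a block. The groups did not overlap in 1 of the 10, Ppara, a fatty acid receptor, which was at 4.44, 4.51 and 4.46 in WT and at 4.17, 3.93 and 4.39 in Selenbp1-KO, a difference of −0.31 (SE 0.14, limma, unadjusted p = 0.0723). Hnf4a, which drives tubular transporter genes, differed by −0.04 (SE 0.10), Ahr by −0.00 (SE 0.13) and Nfe2l2 by −0.11 (SE 0.10).

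The sequences upstream of the start sites were searched for a pair of short motifs. RefSeq (GRCm38.p6) gave the 250 bases before the start for 43 of the 54 genes. The core GCGTG of the element that the dioxin receptor binds stood in 6 of the 43 (14.0%) on either strand, against 30.9% of 27025 genes, and CCAAT in 15 (34.9%) against 37.5%. Neither motif contains the other. The upstream sequences of Abcb1b, the pump with the lowest p, and of Slc22a12, the called urate transporter, are shown with matches to either motif in capitals.
Abcb1b, chr5:8797897-8798146, plus strand: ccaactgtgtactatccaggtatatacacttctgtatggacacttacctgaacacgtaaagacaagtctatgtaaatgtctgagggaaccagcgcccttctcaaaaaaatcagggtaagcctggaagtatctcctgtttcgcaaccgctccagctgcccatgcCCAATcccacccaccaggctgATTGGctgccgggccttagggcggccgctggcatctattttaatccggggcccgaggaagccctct
Slc22a12, chr19:6543071-6543320, minus strand: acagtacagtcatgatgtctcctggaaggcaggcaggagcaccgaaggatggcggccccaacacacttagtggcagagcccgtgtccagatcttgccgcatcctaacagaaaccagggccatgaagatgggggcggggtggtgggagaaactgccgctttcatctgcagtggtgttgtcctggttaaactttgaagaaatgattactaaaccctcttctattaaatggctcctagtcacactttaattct
Abcb1b has 2 matches, both of the CCAAT motif on opposite strands, and Slc22a12 has 0 matches in this window. Of the other called genes well above background, Abcc5 has 0 matches and Slc22a16 has 1, of GCGTG. A match is a description of the letters and not of a bound site.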

How the data were processed

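Kidney RNA of 3 WT and 3 Selenbp1-KO mice was read on 1-colour Agilent arrays. Per the file headers, the authors extracted the images with Feature Extraction 10.7.1.1 (9.5.1.1 in the submitters' processing notes), and the deposited intensities are background-subtracted and detrended within an array, not scaled between arrays. The authors' files also hold a p-value of each spot against its background and flags for outliers and for brightness against that background. A further table of the authors holds 1 quantile normalized intensity per probe. Each array has 62976 spots, 59305 of them no controls, of 56605 probes.

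Each processed signal was divided by the 75th percentile of its array (477 to 751) and taken to log2, without flagged spots, and spots of a probe were averaged. Those probes detected on 1 array or more (p under 0.05), 56097 in all, were tested with limma 3.58.1 (lmFit and eBayes, R 4.3.3), two-sided. The p threshold of 0.05 is that of the study's methods, with Benjamini-Hochberg adjustment over all probes beside it, and the fit was tested on simulated data. A probe counts as well above background on an array where at least 50% of its spots there are flagged so. Gene names are those of the files. Of the 100 member probes, 81 matched RefSeq (GRCm38.p6) by accession, and 1, Slc22a13b-ps, has another name there. Values on every array are given for called genes well above background, for the 12 with the highest signal and for 19 known tubular transporters, 25 genes in all, of which 1 is not reported here. Samples were grouped by the genotype label, and no source used here says which mice shared litters or cages, so p-values measure the spread between these mice. An exact permutation test of 3 against 3 cannot go below 0.1. The number of arrays limits the precision. The members, roles and lists were chosen with earlier results of these data known. The alternatives changed the background correction (normexp, offset 50), the scaling (quantiles, medians or the authors' table), the filter on dim probes, the test (trend and robust options of limma, or the methods' t-test), the block (slide position or replicate number), the probes that stand for a gene, or left out each array in turn. Metabolite and RT-PCR data of the study were not analysed here.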

Additional observations from a re-analysis of the deposited data

How the results depend on the processing

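The count of transporter genes called, 5 of 54 above, was 9 with arrays scaled by the median and 8 where dim probes were removed before the fit. It was 13 with the trend and robust options of limma, and 2 with the slide position as a block. A gene counted under such a setting need not be among the 5, as Slc22a7 with the slide position shows. The count of transporter probes, 10, was 25, 9, 19 and 3 under these settings in the same order, and that of all probes, 4479, was 14616, 2841, 7536 and 3651. With the replicate number as a block, 11 genes, 26 transporter probes and 18430 probes in all were called, and of the 5 genes Abcb1b (−0.41), Abcc5 (−0.31), Slc22a12 (0.40) and Slc22a16 (0.50) were not (limma, unadjusted p of 0.0602 to 0.117). Only replicates 2 and 3 are shared by both genotypes, with correlations of their deviations of 0.171 and 0.187, and nothing says that a number pairs mice. Without 1 array, 1 to 14 genes, 3 to 34 transporter probes and 2024 to 17585 probes in all were called, the highest each time without WT replicate 4 and the lowest without WT replicate 2. The median difference of the transporter genes was −0.035 with quantile normalization, −0.016 with the authors' table, −0.012 where dim probes were removed and −0.076 with the slide position as a block. The median over all probes was 0.11 and moved to 0.00035 with quantile normalization and to 0.0013 in the authors' table. Quantile normalization called 2 transporter genes higher and 4 lower, and normexp 4 higher and 3 lower. Of the 4479 calls 81.1% were higher, and with quantile normalization 2527 were higher and 2170 lower.

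Signs turned under some settings. Slco3a1 turned to −0.029 with normexp, −0.031 with quantile normalization, −0.0081 with scaling by the median, −0.029 in the authors' table, −0.027 with the slide position as a block, −0.030 with the replicate block and −0.25 in the mean of its probes. With quantile normalization Slc22a13 was at −0.039, Slc22a18 at −0.052 (−0.041 in the authors' table) and Slc22a2 at −0.018. With the slide position as a block Slc22a2 was at −0.092, Slc22a22 at −0.14 and Slc22a30 at −0.11, and with the replicate block Abcg2 was at 0.012 and Slc47a1 at 0.048. Averaged over the probes of the gene, Abcb1a was at 0.056 and Slco1a6 at 0.036. Leaving out 1 array moved Slco3a1 to between −0.048 and 0.049, Slc22a6 to between −0.081 and 0.046, Slc22a8 to between −0.15 and 0.021, Abcg2 to between −0.083 and 0.010 and Slc47a1 to between −0.090 and 0.087. The cause of these changes was not tested. Low signal limits the 29 probes near background on all arrays.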
